A study of Mus musculus with 22 samples.

Results

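Genes of the choroid plexus and the meninges were followed through the bulk RNA sequencing of CD11b+ cells from the brain of mice. The 10 members were Ttr, Folr1, Kl, Clic6, Kcnj13, Aqp1, Enpp2, Ptgds, Igf2 and Slc6a12. They were chosen by name as known genes of these tissues, with earlier results of these data known. All 10 were found among the 56691 genes listed in both deposited tables. The 22 libraries came from 20 CF-1 wildtype mice, since 2 of the HIE animals of P14 had 2 libraries each, which were summed. All groups were enriched for CD11b+ cells on magnetic beads from dissociated whole brain. In HIE (hypoxic-ischemic encephalopathy) the dams were injected with LPS (lipopolysaccharide of bacterial walls) late in gestation, and the pups underwent a short hypoxia on P6. The methods of the study give saline for the dams and normoxia for the pups as the counterparts, so HIE and control differ in both. The HIE_P7 group held 4 pups labelled male, and its controls were 2 males and 2 females labelled P8, P9, P10 and P11, 1 pup each, for whom the methods of the study give P7. On P14 there were 4 HIE, 4 control and 4 hypoxia animals, 2 of each sex in each group. The labels name the hypoxia group without saying whether its dams received LPS or saline. Animals that share the first part of their name are called a litter here. The sources do not define that name, and each such litter belongs to 1 group.

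The choroid plexus is a folded epithelium in the brain ventricles that makes the cerebrospinal fluid and secretes transport proteins into it. The meninges are the connective tissue layers around the brain, and their fibroblasts make extracellular matrix, retinoic acid and growth factors. Neither the epithelium nor the fibroblasts carry CD11b, the surface protein of myeloid cells by which the beads select.

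Members of the epithelium were Ttr, the carrier of thyroid hormone and retinol-binding protein; Folr1, a folate receptor; Kl, the co-receptor of FGF23; Clic6, a chloride intracellular channel protein; Kcnj13, an inwardly rectifying potassium channel; and Aqp1, a water channel. Enpp2 encodes autotaxin, the secreted enzyme that makes lysophosphatidic acid, and is made by the choroid plexus and by maturing oligodendrocytes. Ptgds, the prostaglandin D synthase of the meninges, is also made by oligodendrocytes. Igf2 is a growth factor of the choroid plexus and the meninges, and Slc6a12 is a transporter of betaine and GABA. In GRCm39, Folr1 lies at chr7:101507537-101520014 on the minus strand, Kl at chr5:150876072-150917284 on the plus strand, Kcnj13 at chr1:87309135-87322456 on the minus strand and Aqp1 at chr6:55313068-55325540 on the plus strand. Igf2, at chr7:142204503-142220694 on the minus strand, overlaps the antisense gene Igf2os. Whether counting used the strand is not given in the sources used here, and Igf2os stood at 0.544 to 5.22 CPM in the early animals and at 0.0902 to 0.856 CPM on P14.

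RefSeq (GRCm38.p6) gave promoter windows for 6 of the 10 members. No entry was used for Ttr, Folr1, Clic6 and Enpp2. The 250 bases before the start are shown for 4 members with 1 window each. These were chosen because on P14 the epithelial members below moved together from animal to animal, and the meningeal Ptgds moved less closely with them. Capitals mark matches to a TATA box, a GC box or an RFX half-site, searched on both strands and spelled out below, and no matches overlap in the windows shown.
Kcnj13 (chr1:87394730-87394979, minus strand): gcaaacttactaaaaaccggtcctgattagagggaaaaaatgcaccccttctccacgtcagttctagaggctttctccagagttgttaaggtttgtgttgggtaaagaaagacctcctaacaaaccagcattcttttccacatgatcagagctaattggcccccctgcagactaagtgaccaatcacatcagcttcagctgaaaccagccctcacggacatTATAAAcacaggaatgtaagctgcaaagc
Kl (chr5:150952357-150952606, plus strand): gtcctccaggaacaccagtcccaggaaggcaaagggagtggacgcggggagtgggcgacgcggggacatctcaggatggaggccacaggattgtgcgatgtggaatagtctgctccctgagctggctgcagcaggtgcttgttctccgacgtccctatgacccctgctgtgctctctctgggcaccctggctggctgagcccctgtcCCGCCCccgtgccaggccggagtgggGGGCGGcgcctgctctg
Aqp1 (chr6:55336049-55336298, plus strand): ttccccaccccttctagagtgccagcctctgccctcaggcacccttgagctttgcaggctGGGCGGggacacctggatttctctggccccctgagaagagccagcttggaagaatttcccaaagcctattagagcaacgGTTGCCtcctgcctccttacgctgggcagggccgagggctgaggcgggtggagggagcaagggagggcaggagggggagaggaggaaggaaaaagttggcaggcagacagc
Ptgds (chr2:25469750-25469999, minus strand): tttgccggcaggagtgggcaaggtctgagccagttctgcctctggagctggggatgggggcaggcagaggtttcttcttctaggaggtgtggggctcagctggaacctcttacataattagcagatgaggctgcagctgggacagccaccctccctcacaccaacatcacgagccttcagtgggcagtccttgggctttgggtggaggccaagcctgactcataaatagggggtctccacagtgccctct
The window of Kcnj13 held a TATAAA that begins 29 bases before the start, a motif found in 12.4% of all 32851 windows. Kl held the GC box GGGCGG on each strand and Aqp1 held 1, and 32.7% of all windows hold that motif. Aqp1 also held the RFX half-site, whose letters are GTTGCC, found in 10.4% of all windows. TAATCC, the core bound by OTX2, a regulator of the choroid plexus, was in none of the 13 windows of the members and in 6.25% of all windows. GC content was 45.2% in Kcnj13, 66.8% in Kl, 62% in Aqp1 and 58.4% in Ptgds, against a median of 52.4% over all windows. These are matches of letters only.

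The total counts were 70.2 to 83.5 M in the libraries of the early table (HIE_P7 and its controls) and 29.8 to 46.4 M in those of P14, so that 3 counts, taken as the smallest level told from 0, were at most 0.0427 and 0.101 CPM. This limit covers counting error only. Levels are CPM, the counts relative to the library total after TMM scaling, which adjusts for a few genes taking up much of a library. The label of CD11b+ cells was checked with 11 microglial markers (Csf1r, Cx3cr1, P2ry12 and others). Their summed CPM was 17521 to 20294 in HIE_P7, 18122 to 32387 on P14, and 13628 and 15446 in the control litter P6H55, but 2268 and 1425 in the control litter P6H63. The libraries of P6H63 thus stand apart from all others and hold few transcripts of the labelled cell type. The 9 markers of border macrophages were also lowest there, at 1067 and 726 summed CPM, against 2315 to 6311 in the other animals. The main early results below are therefore also given without P6H63. The P6H63 controls are those labelled P8 and P9, and the P6H55 controls those labelled P10 and P11. Without P6H63 the labelled days of the controls thus lie further from P7. Day, table and depth cannot be told apart between the early animals and P14, so their levels are only set side by side.

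**Figure D1:**
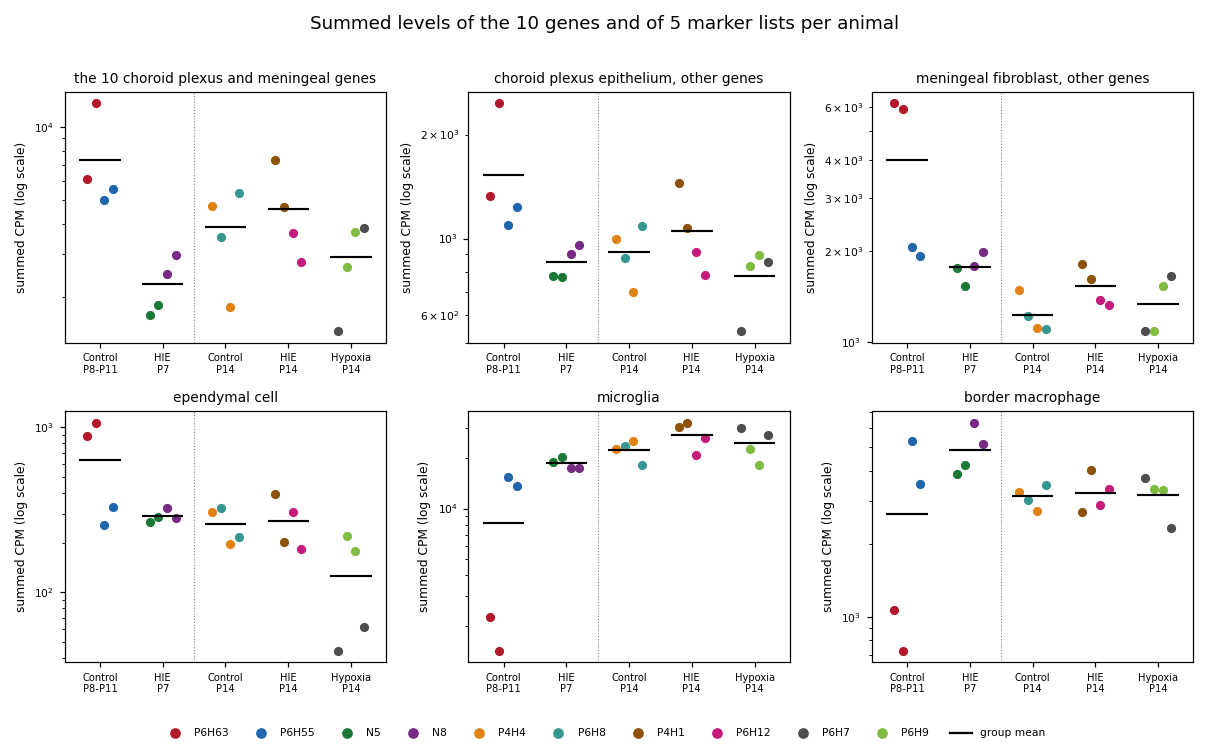
Summed CPM (log scale) of the 10 genes and of 5 marker lists, 1 point per animal coloured by litter, with a line at the mean of each group of 4 animals. The P6H63 controls (red) are lowest for microglial markers, at 2268 and 1425 summed CPM, and highest for meningeal fibroblast markers, at 6174 and 5922.

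Levels of the members differed widely in the CD11b+ preparations, and Ttr was among the most plentiful transcripts. Per kilobase of exon, Ttr ranked between 1 and 5 among 21630 protein-coding genes in the early controls (3 and 5 in the P6H55 animals), between 13 and 32 in HIE_P7, and between 3 and 40 over the 3 groups of P14. In HIE_P7, Igf2 ranked between 404 and 681 and Enpp2 between 790 and 1163. Folr1 ranked between 7976 and 9971 there, Kl between 9399 and 10506 and Kcnj13 between 9615 and 11558. In the early controls the mean level per kilobase of exon was 2525 CPM for Ttr, 150 for Igf2, 82.5 for Enpp2 and 77.8 for Ptgds. Aqp1 (20.7), Clic6 (17.6), Folr1 (6.48), Kl (4.77), Kcnj13 (3.96) and Slc6a12 (1.23) followed on the same scale. In the 2 P6H55 controls alone the mean per kilobase was 1970 CPM for Ttr, 86 for Igf2, 63.8 for Enpp2 and 36.1 for Ptgds. In the P14 controls Ttr was again first at 1274 CPM per kilobase and Enpp2 second at 121, while Igf2 stood at 27.5 and Ptgds at 13.2. No member was at 0 in every animal of any group.

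**Figure D2:**
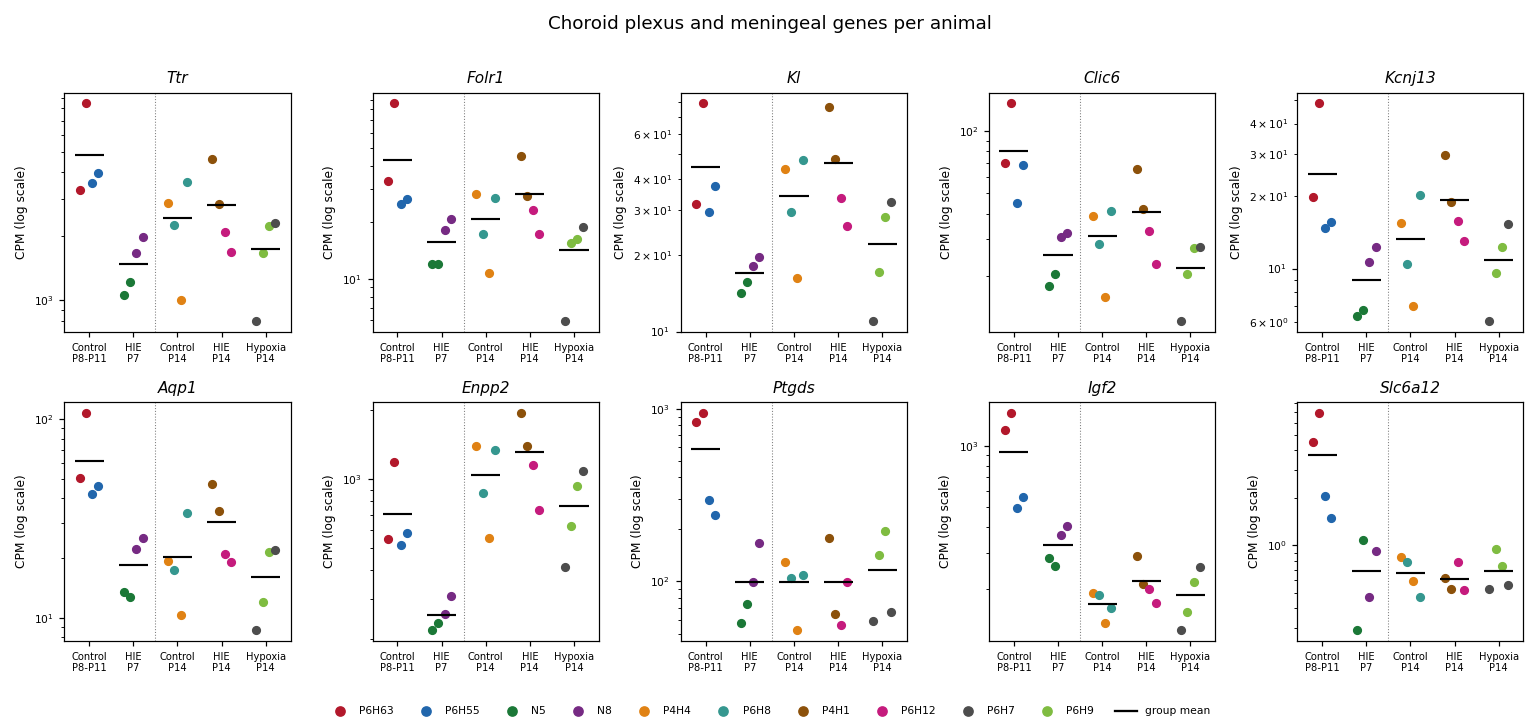
CPM (log scale) of each of the 10 genes, 1 point per animal coloured by litter, with a line at the mean of each group of 4 animals. All 4 HIE_P7 pups lie below all 4 early controls for every gene, and the P14 groups overlap for every gene.

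The order of the groups differed between members. For Ttr the mean was 4818 CPM in the early controls (SD 2438), 2810 in HIE_P14 (SD 1293), 2431 in the P14 controls (SD 1094), 1751 in hypoxia (SD 697) and 1483 in HIE_P7 (SD 422), with 4 animals each. Each of these groups overlapped with the next in that order, and the same was true for Folr1, Kl, Clic6, Kcnj13 and Aqp1. Enpp2 was highest on P14, at 1309 CPM in HIE_P14 (SD 510), 1039 in the controls (SD 401) and 765 in hypoxia (SD 306), followed by 707 in the early controls (SD 319) and 254 in HIE_P7 (SD 39.2), and only the last step separated its neighbours. Igf2 was higher in both early groups, at 926 CPM in the controls (SD 470) and 329 in HIE_P7 (SD 68.5), than on P14, where its means were 218, 188 and 169 CPM in HIE, hypoxia and control. For Igf2 only the step from the early controls to HIE_P7 separated neighbours. Ptgds stood at 580 CPM in the early controls (SD 363) and at means of 98.8 to 116 CPM in the other 4 groups, and Slc6a12 at 3.75 CPM (SD 2.5) and 0.613 to 0.692 CPM. For these 2 genes the early controls lay apart from the next group, and the other 4 groups overlapped. Without P6H63 the mean of the early controls was 3759 CPM for Ttr, 547 for Enpp2, 530 for Igf2, 269 for Ptgds and 1.77 for Slc6a12. The P6H55 animals alone still lay above all HIE_P7 pups for each of these 5 genes.

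The first comparison asks how HIE pups differed from controls shortly after the hypoxia. The HIE_P7 pups were all labelled male and P7 and came from the N litters, while the controls were of both sexes, labelled P8 to P11 and from P6H litters. Treatment therefore cannot be told apart from labelled day, litter or name stem here. Among males alone the only controls were P6H63-7 and P6H55-7, the former from the litter with few microglial transcripts. All 10 log2 fold changes were then below 0, from -2.46 for Ptgds to -0.83 for Kl. EdgeR called 0 members and 13 of the 23274 genes tested in that fit. With all 4 controls, all 10 members were lower in HIE_P7, by 2.6-fold for Kl to 5.72-fold for Ptgds, and no HIE pup reached the lowest control for any of them. In a bulk sample, fewer cells of a type and less RNA per cell cannot be told apart. Ttr was at 1063 and 1219 CPM in the N5 pups and 1663 and 1988 CPM in the N8 pups of HIE_P7. In the controls it was at 3550 and 3969 CPM in litter P6H55 and 3301 and 8452 CPM in litter P6H63. One P6H63 pup was high and the other 3 controls lay close together, all above the highest HIE pup. The log2 fold change of Ttr was -1.69 with a standard error of 0.38 (adjusted p = 0.15, edgeR quasi-likelihood test).

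Enpp2 was at 218, 234, 257 and 308 CPM in HIE_P7. In the controls Enpp2 was at 514 and 579 CPM in P6H55 and at 549 and 1184 CPM in P6H63. As for Ttr, a single P6H63 pup stood above 3 controls of similar level, and the groups did not overlap (log2 fold change -1.46 with a standard error of 0.29, adjusted p = 0.15). Folr1 ranged from 11.9 to 20.7 CPM in HIE_P7 and from 24.9 to 86 CPM in the controls. Kl ranged from 14.2 to 19.7 against 29.6 to 79.2 CPM, and Clic6 from 17.9 to 32.1 against 45.2 to 136 CPM. The potassium channel Kcnj13 and the water channel Aqp1 showed the same picture of separate groups with 1 high control. Kcnj13 ranged from 6.33 to 12.3 against 14.7 to 48.5 CPM, and Aqp1 from 12.8 to 25.3 against 41.9 to 108 CPM. Log2 fold changes of these 5 genes lay between -1.72 for Aqp1 and -1.38 for Kl, with standard errors of 0.32 to 0.43.

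Among the genes shared with the meninges, the 2 control litters lay apart. Ptgds was at 57.5, 73.7, 99.7 and 166 CPM in HIE_P7, at 295 and 244 CPM in the P6H55 controls and at 835 and 948 CPM in the P6H63 controls. Igf2 was at 284, 259, 368 and 404 CPM in HIE_P7, at 499 and 561 CPM in P6H55 and at 1197 and 1449 CPM in P6H63. Slc6a12 was at 0.29 to 1.08 CPM in HIE_P7, at 2.06 and 1.49 CPM in P6H55 and at 4.5 and 6.95 CPM in P6H63. For all 3 genes both P6H63 pups exceeded both P6H55 pups, and these in turn exceeded every HIE pup. Log2 fold changes were -2.52 (standard error 0.53) for Ptgds, -1.47 (0.36) for Igf2 and -2.42 (0.59) for Slc6a12.

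None of the 10 members passed an adjusted p of 0.05 in edgeR, which called 0.0666% of the 22517 genes tested. All 10 had an adjusted p of 0.15 and an unadjusted p under 0.05, as had 6143 of all genes. DESeq2 called all 10 as lower, with adjusted p from 0.000356 for Ptgds to 0.0249 for Folr1, where it called 9.1% of all genes as lower. The 10 of 10 members that did not overlap between the groups stand against 7.7% of all genes lower without overlap. The members were chosen with earlier results of these data known, and most move together from animal to animal. The 10 are therefore neither independent of each other nor an independent check. The median log2 fold change was -1.56 over the members and -0.082 over all genes tested. The test of these 4 against 4 animals rests on which controls enter, because leaving out the control P6H55-7 alone gave 10 members and 5588 genes called by edgeR. Leaving out the high control P6H63-8 alone moved Folr1 to a log2 fold change of -0.84 and Kcnj13 to -0.89, and edgeR then called 0 members.

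**Figure D3:**
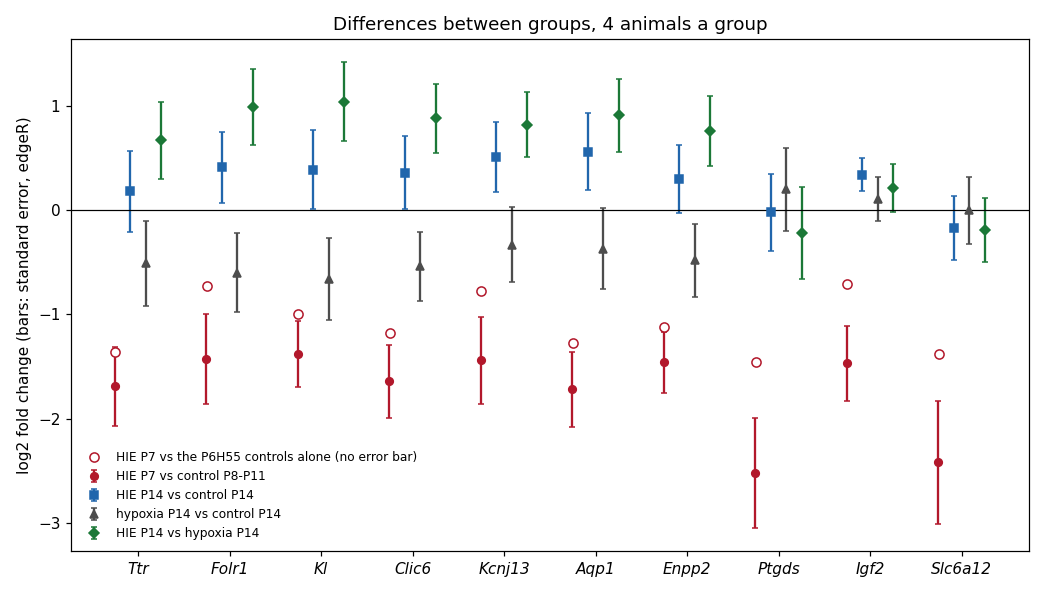
Log2 fold change of each gene in 4 comparisons, 4 animals a group, with standard errors from edgeR, and open circles for HIE_P7 against the P6H55 controls alone. Values against all early controls lie between -2.52 and -1.38 and those against P6H55 alone between -1.46 and -0.71, while the P14 values lie on both sides of 0.

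Without the P6H63 litter, all 10 members were still lower in HIE_P7 than in both P6H55 controls. These controls are labelled P10 and P11, so treatment and labelled day are further confounded in this fit. They also share 1 litter by name, so p-values here do not measure the spread between litters. Log2 fold changes were then -1.36 for Ttr, -1.27 for Aqp1, -1.18 for Clic6, -1.12 for Enpp2, -1 for Kl, -0.78 for Kcnj13 and -0.73 for Folr1. Ptgds was at -1.46, Slc6a12 at -1.38 and Igf2 at -0.71. For every member this was nearer to 0 than with all 4 controls. Only Enpp2 passed in edgeR (adjusted p = 0.0498), in a fit that called 0.0687% of all genes as lower, and all 10 had an unadjusted p under 0.05. DESeq2 called 7 of the 10 as lower, against 1.82% of all genes, and did not call Kcnj13, Ptgds and Slc6a12. With the P6H63 litter as the only controls edgeR called all 10 as lower, but also 30.8% of all genes.

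Marker lists of other cells moved with P6H63. The 28 other genes of the choroid plexus epithelium (Slc12a2, Trpm3, Slc4a10 and others) had a median log2 fold change of -1.55 with all early controls and -0.9 with P6H55 alone. DESeq2 called 24 of them as lower with all controls and 21 with P6H55 alone, and edgeR called 0 in either fit. With all controls the smallest adjusted p by DESeq2 were those of Wfikkn2 (7.6e-07, log2 fold change -2.28), a secreted protease inhibitor of the choroid plexus, Trpm3 (6.76e-05, log2 fold change -1.78), a cation channel, and Krt18 (0.000219, log2 fold change -1.77), an epithelial keratin. With P6H55 alone these 3 were at -2.36, -1.39 and -1.49 and DESeq2 still called them (adjusted p = 0.000825, 1.64e-08 and 0.000131). These p-values too rest on controls of 1 litter by name. Slc12a2, the sodium, potassium and chloride cotransporter, was at 408 to 427 CPM in HIE_P7 and at 230 to 355 CPM in the controls, the opposite direction to the other named genes (log2 fold change 0.47 with all controls, 0.21 with P6H55 alone). DESeq2 called it as higher with P6H55 alone (adjusted p = 0.0341), where it called 554 of all 23274 genes as higher, but not with all controls.

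The 28 other meningeal fibroblast genes had a median log2 fold change of -1.33 with all controls but -0.29 with P6H55 alone, and DESeq2 called 18 and 3 of them as lower. Fibronectin (Fn1) was the highest of them, at 631 to 768 CPM in HIE_P7 and 667 to 2475 CPM in the controls, followed by the collagens Col1a2 and Col3a1. Transcripts of 3 genes had the smallest adjusted p by DESeq2 with all controls. These were Aldh1a2, an enzyme of retinoic acid synthesis (log2 fold change -1.75, adjusted p = 0.00567), the amino acid transporter Slc6a20a (-1.55, adjusted p = 0.0064) and the organic anion transporter Slc22a6 (-1.63, adjusted p = 0.00841). With P6H55 alone they were at -0.83, -0.83 and -0.7, and DESeq2 called Aldh1a2 (adjusted p = 0.0456) and Slc6a20a (0.047) but not Slc22a6 (0.069). The 10 ependymal markers had a median of -1.09 with all controls and 0.04 with P6H55 alone, and the 8 endothelial markers -0.95 and -0.28. Microglial markers stood at 1.16 and 0.35, border macrophage markers at 0.82 and 0.07, astrocyte markers at -1.15 and -0.4, oligodendrocyte markers at 0.12 and 0.06, and neuronal markers at -0.63 and 0.03. With P6H55 alone, the members' median was -1.15 and that of all genes -0.02. The part of the cell makeup in these differences was not tested.

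Partners of the members, 22 genes for the ligands, receptors, enzymes and transporters that act with them, were mixed in the early comparison. In HIE_P7, 14 were lower and 8 higher, with a median of -0.72. EdgeR called 0. DESeq2 called 10 as lower and 4 as higher, where it called 2050 and 974 of all 22517 genes. Those lower by DESeq2 included the folate transporter Slc19a1 (log2 fold change -0.66, adjusted p = 0.0122) and the prostaglandin D2 receptor Ptgdr (-1.84, adjusted p = 0.0163). Higher were the cyclooxygenase Ptgs2 (1.42, adjusted p = 0.00972), the macrophage folate receptor Folr2 (1.64, adjusted p = 0.0185) and the growth factor Igf1 (1.23, adjusted p = 0.041). With P6H55 alone DESeq2 called 1 of the 22 as lower and 2 as higher, where it called 424 and 554 of all 23274 genes. The median by edgeR was then -0.17. Folr2 (1, adjusted p = 0.00116) and Igf1 (0.65, adjusted p = 0.0126) kept their call by DESeq2, while Ptgs2 (1.08, adjusted p = 0.129), Slc19a1 (-0.36, adjusted p = 0.0629) and Ptgdr (-0.52, adjusted p = 0.384) did not.

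On P14 the comparison of HIE with control asks whether a difference was present at the later age. No member passed the test, and the groups overlapped for all 10. Ttr was at 4614 and 2832 CPM in the P4H1 litter and 1684 and 2107 CPM in the P6H12 litter of HIE_P14. In the controls it was at 1008 and 2879 CPM in P4H4 and 3586 and 2251 CPM in P6H8. The highest animal was an HIE one and the lowest a control, with the rest intermixed (log2 fold change 0.18 with a standard error of 0.39). Enpp2 was at 1955, 1393, 731 and 1157 CPM in the HIE animals and at 554, 1394, 1342 and 866 CPM in the controls, which also overlap (0.30 with a standard error of 0.33). Igf2, the member with the smallest unadjusted p (0.0652, edgeR), was at 290, 212, 171 and 201 CPM in HIE_P14 and at 136, 192, 161 and 188 CPM in the controls (0.34 with a standard error of 0.16, adjusted p = 0.552). Log2 fold changes of the other members were 0.56 for Aqp1, 0.51 for Kcnj13, 0.41 for Folr1, 0.39 for Kl, 0.36 for Clic6, -0.02 for Ptgds and -0.17 for Slc6a12.

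EdgeR called 0 of the 10 members, 0 at an unadjusted p under 0.05, and 0.00478% of all 20934 genes. DESeq2 called 0 of the 9 members for which it gave an adjusted p, and 2.34% of all genes. The median log2 fold change was 0.35 over the members and 0.012 over all genes. The direction for Ttr rested on single libraries, being -0.17 without the HIE animal P4H1-1M and -0.08 without the control P4H4-7F. It also differed between the stems P4H and P6H of the animal names. Among P4H animals alone, 2 against 2, log2 fold changes lay between 0.75 for Enpp2 and 1.41 for Aqp1 for the 6 epithelial members and Enpp2. Among P6H animals alone, Ttr was at -0.63, Folr1 -0.14, Kl -0.39, Clic6 -0.34, Kcnj13 -0.1, Aqp1 -0.36 and Enpp2 -0.24, lower in HIE. The 28 other genes of the epithelium had a median of 0.27 and the 28 other meningeal genes 0.29, of which DESeq2 called 0 and 3 as higher. These 3 were Ranbp3l (log2 fold change 0.92, adjusted p = 0.00464), the transcription factor Tbx18 (0.65, adjusted p = 0.00405) and the proteoglycan Bgn (0.59, adjusted p = 0.0103), and edgeR called none of them. Marker lists of other cells also differed between the groups. All 7 neuronal markers were lower in HIE_P14 (median -1), as were 9 of 9 oligodendrocyte markers (-0.75) and 6 of 7 astrocyte markers (-0.4). Of the neuronal markers edgeR called 0 and DESeq2 5, where DESeq2 called 2.34% of all genes in either direction. Endothelial markers were higher in 8 of 8 (0.47), and their part in the members' values was not tested.

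In the hypoxia group the epithelial members and Enpp2 had lower means than in the P14 controls, within the spread, and the groups overlapped for all 10. The hypoxia animals were all of the P6H stem and the controls of both stems. Hypoxia therefore cannot be told apart from litter here, and only in part from the name stem. Ttr was at 798, 2299, 1666 and 2241 CPM, Kl at 11, 32.3, 17.1 and 28.4 CPM, and Folr1 at 5.94, 18.8, 15.5 and 16.3 CPM in the animals P6H7-16M, P6H7-8F, P6H9-14M and P6H9-15F. The animal P6H7-16M had the lowest value of all 20 animals for Ttr, Folr1, Kl, Clic6, Kcnj13, Aqp1 and Igf2. For Ttr, Kl and Folr1 the other 3 lay within the range of the controls. Log2 fold changes against control were -0.66 for Kl (standard error 0.39), -0.6 for Folr1, -0.54 for Clic6, -0.51 for Ttr, -0.48 for Enpp2, -0.37 for Aqp1 and -0.33 for Kcnj13. Ptgds (0.2), Igf2 (0.11) and Slc6a12 (0.00) did not share this direction. EdgeR called 0 of 10, 0 at an unadjusted p under 0.05, and 0.00955% of all genes, and DESeq2 called 0 of 9 and 0.783% of all genes. The members' median was -0.42, that of the 28 other epithelial genes -0.45 and that of all genes -0.014. The 10 ependymal markers were all lower (median -1.05), as were 7 of 7 astrocyte (-0.78), 7 of 7 neuronal (-0.77) and 9 of 9 oligodendrocyte markers (-0.5), while 8 of 8 endothelial markers were higher (0.39). EdgeR and DESeq2 called 0 of these. Ependymal markers were lowest in the P6H7 litter, at 44.2 and 61.2 summed CPM against 178 to 393 in the other P14 animals, and their part in the values of that litter was not tested. With P6H animals alone, the log2 fold changes of the epithelial members and Enpp2 lay between -0.85 for Kl and -0.55 for Kcnj13. Ptgds, Igf2 and Slc6a12 were then at 0.08, 0.06 and 0.1.

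HIE against hypoxia on P14 gave larger log2 fold changes for the epithelial members than either comparison with control, but not with P6H animals alone. Folr1 was at 45.1, 27.7, 17.3 and 23.3 CPM in HIE_P14, of which 1 animal lay within the hypoxia range and 3 above it. Log2 fold changes were 1.04 for Kl (standard error 0.38), 0.99 for Folr1 (0.36), 0.91 for Aqp1 (0.35), 0.88 for Clic6 (0.33), 0.82 for Kcnj13 (0.31), 0.76 for Enpp2 (0.34) and 0.67 for Ttr (0.37). Ptgds (-0.22), Igf2 (0.21) and Slc6a12 (-0.19) were nearer to 0. EdgeR called 0 of 10 members against 0.00955% of all genes, with adjusted p of 0.999 or 1, and 6 had an unadjusted p under 0.05, as had 948 of all 20949 genes. DESeq2 called 0 of 10 and 0.0716% of all genes. This comparison shares its HIE animals with the one against control. The 28 other epithelial genes were also higher in HIE_P14, with a median of 0.61, and edgeR and DESeq2 called 0 of them. The 10 ependymal markers were higher as well, with a median of 1.14, and their part in the values was not tested. The members' median was 0.79 and that of all genes -0.008. The hypoxia animals were all of the P6H stem, while the HIE animals were of both stems. With P6H animals alone, log2 fold changes were 0.53 for Folr1, 0.43 for Kl, 0.42 for Kcnj13 and 0.35 for Clic6. Aqp1 was then at 0.33, Enpp2 at 0.32 and Ttr at 0.13. Each of these was smaller in size than that of hypoxia against control in P6H animals alone.

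The difference between the early and the P14 log2 fold change of HIE against control was tested as an interaction. In the early pair, treatment goes with labelled day, sex and name stem, which are balanced between the groups on P14. These differences do not cancel, so a change of the HIE effect with age cannot be told apart from them. The interaction was negative for all 10 members, from -2.51 for Ptgds and -2.29 for Aqp1 to -1.77 for Enpp2. Its median was -1.92 against -0.043 over all genes. EdgeR called 0 of 10 (adjusted p 0.11 for Igf2 to 0.185 for Folr1) and 0.00405% of the 24693 genes, and all 10 had an unadjusted p under 0.05, as had 3434 of all genes. DESeq2 called 9 as lower, all but Folr1 (adjusted p = 0.056), where it called 2.24% of all genes as lower. Without P6H63 the members' median was -1.41, edgeR called 0 of 10 members and 0% of all genes as lower, with 9 members at an unadjusted p under 0.05. DESeq2 then called Igf2 alone (adjusted p = 0.0375), against 0.472% of all genes as lower.

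Relative to Ttr in the same animal, the epithelial members varied less than their levels did. The highest over the lowest of the 12 P14 animals was 7.6-fold for the level of Folr1 and 1.52-fold for its share of Ttr, and 6.99-fold and 1.65-fold for Kl. Over the 12 animals of P14, Ttr itself spanned from 798 to 4614 CPM, while Folr1 stayed between 0.727 and 1.11% of Ttr, Kl between 1.02 and 1.68%, Clic6 between 1.15 and 1.56%, and Kcnj13 between 0.461 and 0.774%. In the early animals Folr1 was at 0.669 and 0.7% of Ttr in the P6H55 controls and at 0.979 to 1.12% in the other 6 animals. Enpp2 was at 14 to 20.5% of Ttr in the 8 early animals and at 37.3 to 54.9% in the 12 animals of P14, without overlap. Igf2 was at 14.1 to 36.2% of Ttr early and at 4.49 to 15.8% on P14. Thus Enpp2 stood higher and Igf2 lower relative to Ttr in the P14 table. The 9 oligodendrocyte markers, whose cells also make Enpp2, were at 269 to 543 summed CPM early and at 864 to 5188 on P14, and their part in the Enpp2 values was not tested. Its correlation with the epithelial members is given next.

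**Figure D4:**
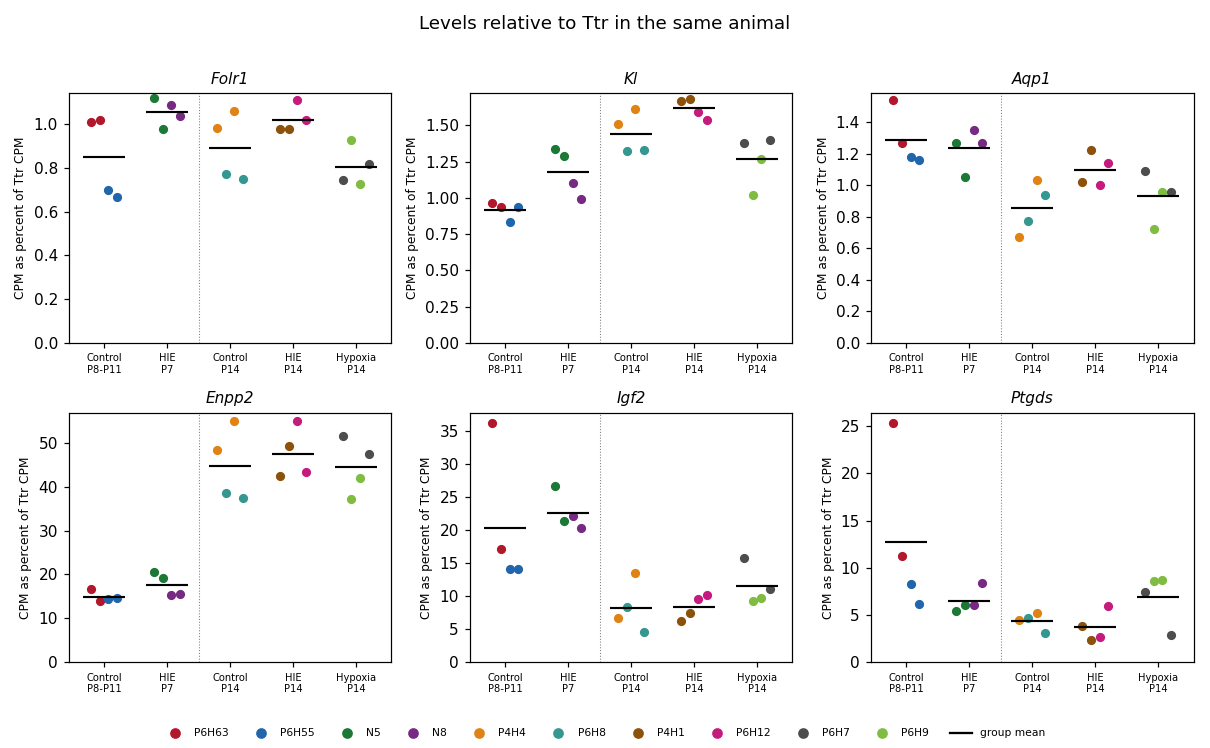
CPM of 6 genes as a percent of the CPM of Ttr in the same animal, coloured by litter, with a line at the mean of each group of 4 animals. Enpp2 lies at 14 to 20.5% of Ttr in the early animals and at 37.3 to 54.9% on P14, and Igf2 at 14.1 to 36.2% and 4.49 to 15.8%.

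From animal to animal, Ttr, Folr1, Kl, Clic6, Kcnj13, Aqp1 and Enpp2 moved together. Pearson's r of log2 CPM over the 21 pairs of these 7 genes was 0.91 to 0.99 in the 12 animals of P14 and 0.96 to 1.00 in the 8 early animals, values that share libraries and scaling. With the 7 genes, Igf2 correlated at 0.76 to 0.81 on P14, Ptgds at 0.36 to 0.54 and Slc6a12 at -0.24 to 0.09. In the 8 early animals, whose 2 groups do not overlap for any member, the same ranges were 0.89 to 0.94 for Igf2, 0.89 to 0.94 for Ptgds and 0.87 to 0.9 for Slc6a12. In the 6 early animals without P6H63 they were 0.94 to 0.99, 0.91 to 0.97 and 0.67 to 0.8, and 0.89 to 1.00 within the 7 genes. Slc6a12 was measured at under 1 CPM in every P14 animal. The 2 libraries of animal P4H1-6F differed by 1.01 to 1.08-fold over the members and those of P6H12-11M by 1 to 1.16-fold, while Ttr ranged from 1008 to 3586 CPM among the control animals of P14.

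Genes with the most similar pattern were sought among those with a mean of at least 1 CPM, by the correlation of log2 CPM with the mean of Ttr, Folr1, Kl, Clic6 and Kcnj13. On P14, over 12 animals and 16947 genes, they were Sostdc1 (r = 0.983), Kcne2 (0.982), Car12 (0.980), Htr2c (0.979) and Cldn2 (0.979). In the early table, over 8 animals and 16440 genes, they were Col4a3 (0.999), Htr2c (0.996), Atp2b3 (0.996), Car12 (0.995) and Vat1l (0.995). In the 6 animals without P6H63 the r of these 5 genes was between 0.987 for Car12 and 0.997 for Col4a3. In both early sets the HIE_P7 pups and the controls do not overlap for any member, so each r includes that difference between the groups. Htr2c, a serotonin receptor, and Car12, a carbonic anhydrase, were in both lists. Htr2c stood at 17.4 to 137 CPM in the early animals and at 10.8 to 56.3 CPM on P14.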

How the data were processed

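RNA of CD11b+ cells was measured in 22 libraries from 20 animals. The authors depleted ribosomal RNA, made stranded libraries, mapped reads to GRCm39 with STAR and ran RSEM, whose expected counts they deposited unscaled. RSEM divides reads that match several genes. Values were rounded to integers, and libraries of 1 animal were summed.

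Of 56691 gene identifiers, 56017 matched GENCODE M39 and 674 did not, and 139 of 140 list genes were found (not Fcrls). The main test was the edgeR 4.0.16 quasi-likelihood test in R 4.3.3 with TMM factors, filterByExpr and a Benjamini-Hochberg adjusted p of 0.05, fitted over all genes. DESeq2 1.42.0 on the same genes was an alternative. Procedures were tested on simulated data. CPM used TMM factors over all animals, log2 CPM a prior count of 2. Each comparison used its own 8 animals, and the interaction 16.

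The 10 members and the lists were chosen with earlier results of these data known, so their p-values are no independent support. All members are named. For the epithelial, meningeal and partner lists, the genes of highest mean CPM or smallest adjusted p were named (by DESeq2, since edgeR called none), up to 3 of each, and not in every comparison. Marker lists of other cells are given by counts and medians only, which departs from the naming rule set at the start. The 5 genes of most similar pattern are named. One gene is not reported here. Nothing in the labels says which animals share a dam, so p-values measure the spread between these animals and not that between litters. Alternatives were other scaling, no filter, DESeq2, sex labels, 1 library per animal, the P4H or P6H name stem as a block, and leaving out each animal. Added after seeing the data were P4H, P6H or male animals alone, DESeq2 with P6H55 controls alone, and early levels and correlations without P6H63.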

Additional observations from a re-analysis of the deposited data

Results flagged for a closer look

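In groups of 4 animals, a value was marked where its gap to the nearest other took up more of the group's range than Dixon's critical value allows. Of 50 pairs of member and group, 6 were marked, and chance marks about 1 in 20. All 6 were the same control pup, P6H63-8, at 8452 CPM for Ttr, 86 for Folr1, 79.2 for Kl, 48.5 for Kcnj13, 108 for Aqp1 and 1184 for Enpp2. The same pup had the lowest microglial markers of all animals, at 1425 summed CPM. These genes share 1 library and are not independent.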

How the results depend on the processing

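Depth was not a limit for 9 members, while Slc6a12 lay at 0.47 to 0.949 CPM on P14, where 3 counts are 0.0646 to 0.101 CPM. No paired analysis was possible because replicate numbers were given in accession order only. The name stem as a block gave 2 genes called for HIE against control on P14 and 0 members.

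In the early comparison all members kept their direction in every alternative. Genes and members called were 3024 and 10 with DESeq2, 13905 and 10 with P6H63 controls alone, 26 and 1 with P6H55 alone, 978 and 7 with DESeq2 and P6H55 alone, and 10 to 5588 and 0 to 10 when leaving out 1 animal. For HIE against control on P14, genes called were 490 (DESeq2), 2 (library size only), 3 (no filter), 0 (all 12 animals in 1 fit), 15 (P4H alone), 3 (P6H alone) and 0 to 6 leaving out 1 animal. For hypoxia against control they were 164 (DESeq2), 0 (all 12 animals), 1 (sex label), 0 (P6H alone) and 1 to 7 leaving out 1 animal. For HIE against hypoxia they were 15 (DESeq2), 5 (no filter), 0 (all 12 animals), 1 (sex label) and 1 to 3 leaving out 1 animal. For the interaction, genes and members called were 674 and 9 (DESeq2), 7771 and 10 (P6H63 alone), 0 genes (P6H55 alone), 190 and 1 (DESeq2 with P6H55 alone), 0 genes (library size only), and 0 to 1200 and 0 to 6 leaving out 1 animal.

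Direction turned for HIE against control on P14 with P6H animals alone, where log2 fold changes were -0.63 (Ttr), -0.14 (Folr1), -0.39 (Kl), -0.34 (Clic6), -0.1 (Kcnj13), -0.36 (Aqp1), -0.24 (Enpp2) and 0.02 (Slc6a12). Ptgds turned to 0.39 with P4H alone and to 0.0036 with no filter. Igf2 turned to -0.0047 in HIE against hypoxia with P6H alone. Leaving out 1 animal, Ttr ranged from -0.17 to 0.43 and Ptgds from -0.44 to 0.18 in HIE against control, Ptgds from -0.18 to 0.42, Igf2 from -0.07 to 0.27 and Slc6a12 from -0.19 to 0.13 in hypoxia against control, and Ptgds from -0.65 to 0.15 in HIE against hypoxia. The P4H, P6H and DESeq2 with P6H55 alternatives were chosen after seeing the data. The cause was not tested.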
